A study of Homo sapiens with 6 samples.

Results

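The genes described here are 10 core genes of nucleotide excision repair: ERCC1, ERCC2, ERCC3, ERCC4, ERCC5, ERCC6, ERCC8, XPA, XPC and DDB2. They were chosen by name, as 10 of 20020 protein-coding genes, and what was measured at them is where polyadenylated RNA ended. Every peak whose summit lay in a gene body, or up to 4000 bp past its 3′ end, was taken, which gave 122 of the 200023 peaks of the list.

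The cells were IMR-32, an established human neuroblastoma line, studied by 3′ end sequencing of poly(A) RNA in 6 libraries. The solvent DMSO was given to the cells of 2 libraries, and THZ531 at 400 nM to those of the other 4, in 2 of them for 2 h and in 2 for 6 h. CDK12 and CDK13, the kinases that THZ531 binds covalently and blocks, act on elongating RNA polymerase II. The peaks were called once on pooled reads, so no value belongs to a single library, treatment or replicate: the effect of THZ531 on these genes was not testable here, and no spread between replicates can be given. The sympathetic neuroblastoma markers MYCN, HAND2, GATA3, ISL1, DBH and CHGA each had a peak at a transcript end, of 19 to 100 reads. Of 4 markers of other cell types, PTPRC and PECAM1 had none, and EPCAM and COL1A1 had peaks of at most 15 reads.

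Nucleotide excision repair removes bulky lesions, such as those left by ultraviolet light, by cutting the damaged strand on both sides and filling the gap. Damage is found either across the genome, by XPC and the DDB complex, or where RNA polymerase stalls, by the ERCC6 and ERCC8 proteins. TFIIH then opens the DNA, XPA checks the lesion and a pair of endonucleases cuts. A transcript of any of these genes that ends in an intron, at a cryptic polyadenylation site, lacks the exons beyond that intron.

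Each peak is described by the reads stacked at its summit. The caller's default counts 1 read per start position and strand, and heights in the whole list run from 3 to 200 reads, so high expression is compressed. Intervals on reads are 95% exact Poisson intervals and intervals on shares are 95% Wilson intervals. Both cover counting error only. A peak was kept when its −log10 q-value was at least 5. At the 10 genes 94 of 122 peaks (77.0%, interval 68.8 to 83.6) passed, against 69.3% of the whole list, and 28 did not. A transcript-end peak has its summit from 200 bp before to 600 bp after the end of any annotated transcript, and the summit of an intronic peak lies in no exon of any annotated transcript of its gene. Among transcript-end peaks, one was set down as at the canonical end where its summit lay in that window of the canonical transcript or its 3′ edge within 30 bp of that end. Coordinates are GRCh38, with genes and transcripts from GENCODE 44.

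All 10 genes had a transcript-end peak, as did 64.0% of protein-coding genes. All 10 also had an intronic peak, as did 79.7% of the genes with an intron and a transcript-end peak (called detected genes below). ERCC2 had one only through 2 peaks next to A-rich genome, described below. Of the 94 peaks, 52 were intronic (55.3%, 45.3 to 65.0), against 64.0% over all protein-coding genes. Another 27 were at transcript ends (28.7%, 20.6 to 38.6; all genes 20.2%), 10 were exonic (10.6%) and 5 lay past the gene end (5.32%). The shares over all genes pool peaks, so genes with many peaks weigh more, and gene length was not matched. The intervals take the peaks of a gene as independent. The intronic peaks were lower than those at transcript ends, with a median of 14.5 reads (range 7 to 52) against 19 (range 8 to 46). The same medians over all protein-coding genes were 12 and 19 reads. A low peak cannot tell fewer cells holding a transcript from less of it in each cell.

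**Figure D1:**
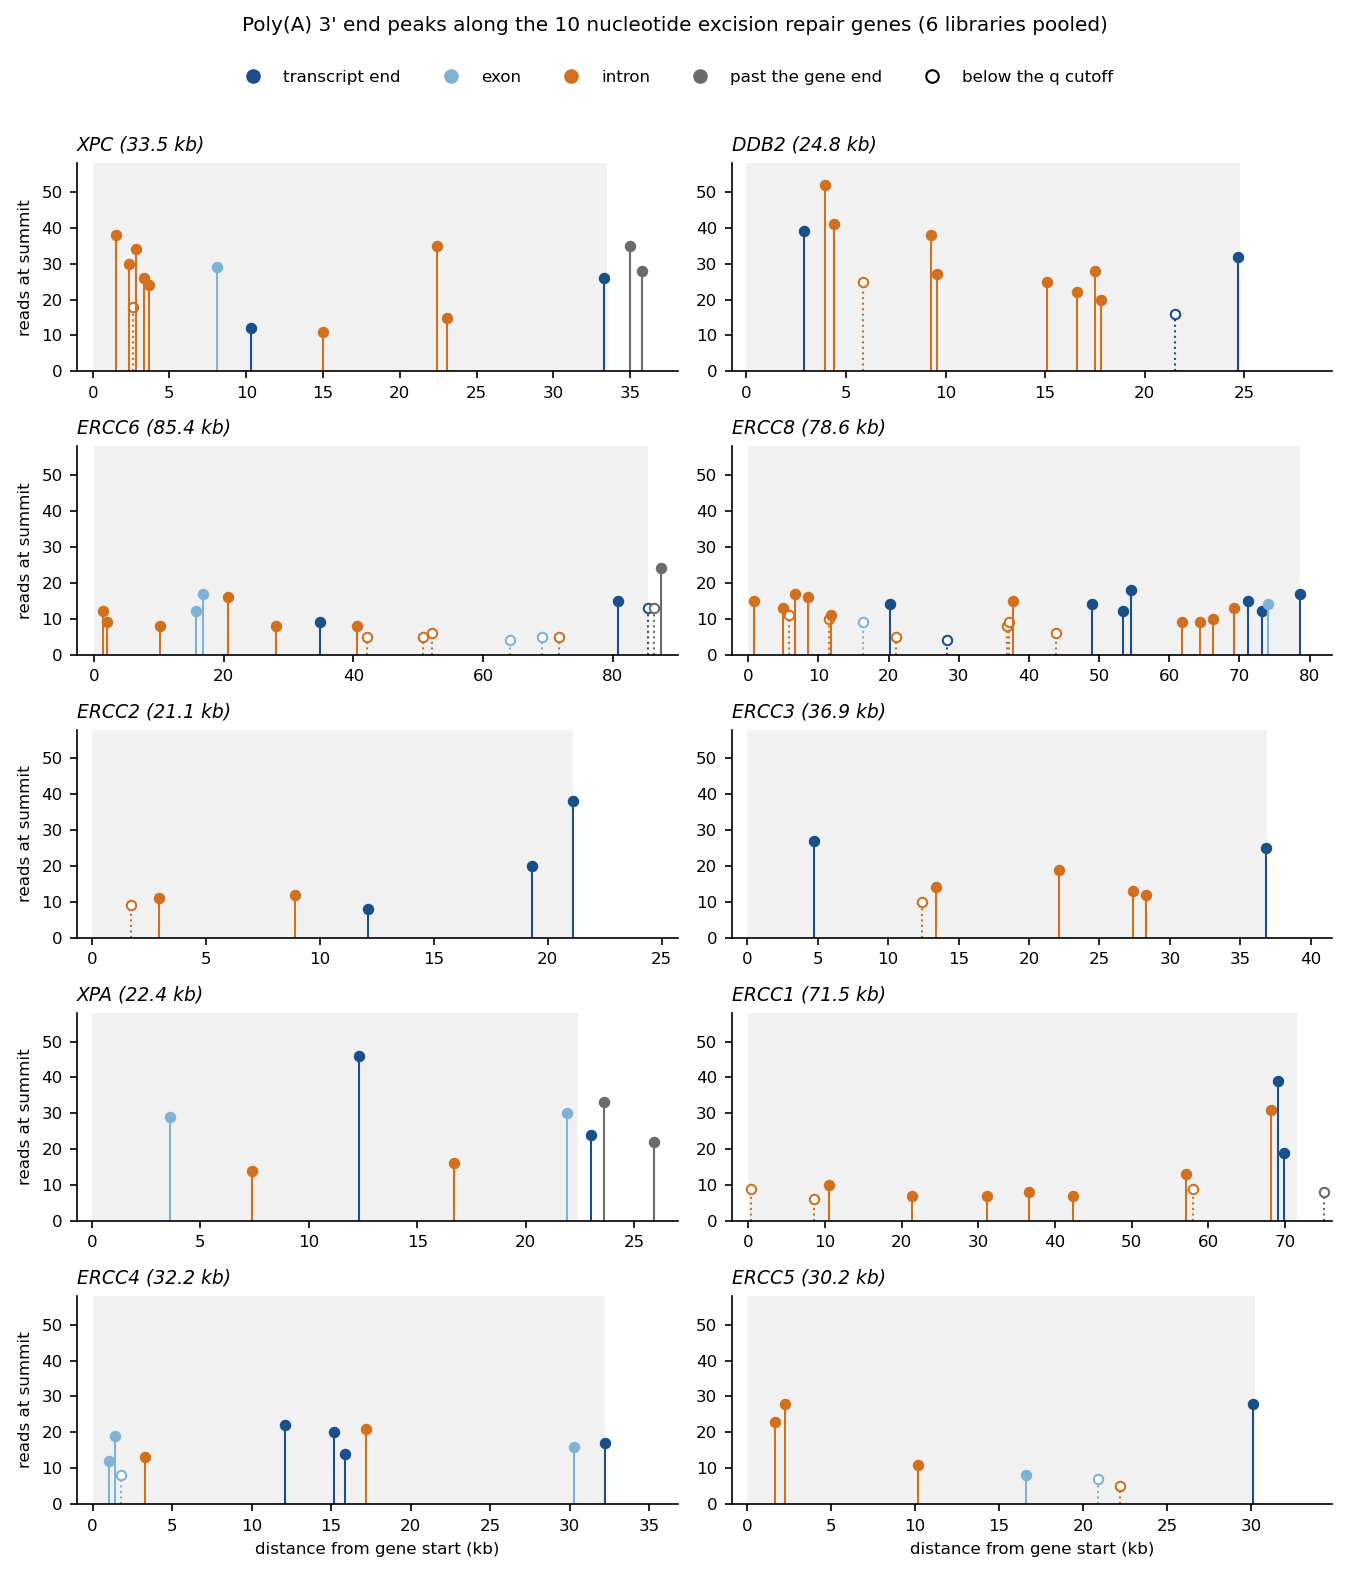
Peaks along each gene, by distance of the summit from the gene start (kb, horizontal) and reads at the summit (vertical), colored by class, with open symbols for the 28 peaks below the q cutoff and the gene body in gray. XPC carries a group of peaks in its first intron and DDB2 a series in intron 3, while the peaks of ERCC8 stay at or below 18 reads.

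XPC and DDB2 carried the tallest intronic peaks of the 10 genes, at 38 and 52 reads, and more intronic peaks than most genes of their length. XPC binds the distorted helix and starts repair across the genome, and DDB2 is the DNA-binding subunit of the complex that recognizes ultraviolet lesions in chromatin. Together they held 16 intronic peaks with a median of 27.5 reads (11 to 52). A polyadenylation hexamer, defined below, lay before 14 of the 16, against 57.1% of intronic peaks over all protein-coding genes.

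XPC (ENSG00000154767.15, chr3:14145147-14178621, minus strand) had 13 passed peaks, of which 8 were intronic. Its first intron, 5.4 kb long, held 5 of them between 1.49 and 3.67 kb from the canonical transcript start, with 38, 30, 34, 26 and 24 reads in order along the gene. Only 3.65% of the coding sequence lies before that intron. Each of the 5 was as high as, or within the Poisson interval of, the peak at the canonical end, which had 26 reads (17.0 to 38.1), an AATAAA 19 bp before its 3′ edge and that edge 1 bp from the annotated end. No opposite-strand gene is annotated at the first-intron peaks. Farther along were an exonic peak in exon 3, with 29 reads, and an intronic one in intron 10, with 35 reads (24.4 to 48.7). The intron 10 peak lies inside XPC-AS1, an antisense gene, and since the list holds no strand its reads cannot be told apart from that gene's. The same holds for 3 of the 8 intronic peaks of XPC and for its canonical-end peak. Past the gene end were peaks of 35 (24.4 to 48.7) and 28 reads (18.6 to 40.5), both inside TMEM43, a gene on the opposite strand.

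DDB2 (ENSG00000134574.12, chr11:47214465-47239217, plus strand) had 10 passed peaks, and 9 of them lay in intron 3, which is 15.8 kb long and has 35.6% of the coding sequence before it. One of the 9, with 39 reads (27.7 to 53.3), was at the annotated end of a retained-intron transcript, 2.38 kb from the canonical start. The other 8 were intronic and ran along the intron with 52, 41, 38, 27, 25, 22, 28 and 20 reads. The tallest, at chr11:47218280-47218502, had 52 reads (38.8 to 68.2), the highest of all 122 peaks. The peak at the canonical end had 32 reads (21.9 to 45.2) and no hexamer, and it lay in the end window of ACP2, a gene on the opposite strand. None of the 8 intronic peaks has an annotated opposite-strand gene over it.

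The sequences before the 3′ edge of the tallest sites of these genes follow, 5′ to 3′ on the gene's strand, to show which hexamers lie at the tallest intronic sites, beside the canonical end of XPC. Capitals mark the hexamer nearest to the 3′ edge of the peak.
XPC canonical end (chr3:14145146-14145175, 26 reads): ttgagaaaatAATAAAgcatttatctaaag
XPC intron 1 (chr3:14177098-14177127, 38 reads): ggctaaatgctaAATAAAtattttatttat
XPC intron 1 (chr3:14175719-14175748, 34 reads): cctgtacatgcaAATGAAggtgatacttgg
XPC intron 1 (chr3:14176232-14176261, 30 reads): ggcaATTAAAaatttacggttttaatctga
XPC intron 10 (chr3:14156029-14156058, 35 reads): accccacaAATATAagtcaaaaacatacaa
DDB2 intron 3 (chr11:47218446-47218475, 52 reads): tgaattggagtcAATAAAgaagactccatg
DDB2 intron 3 (chr11:47218901-47218930, 41 reads): aattgtaaaatacacgtaaCATAAAatgta
DDB2 intron 3 (chr11:47223792-47223821, 38 reads): taaataaagaataaaAATAAAgatgatttc
The windows of the XPC peaks with 38 and 34 reads and of the DDB2 peak with 52 reads are centered on the hexamer, which lay 51, 42 and 44 bp before the edge. The other windows end at the edge.

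Set against detected genes in the same of 20 length bins, DDB2 ranked at percentile 99.4 by its number of intronic peaks and XPC at percentile 97.1, with 8 each where the bin medians were 2 and 3. Leaving out peaks under an opposite-strand gene put XPC at percentile 82.3 and DDB2 at percentile 99.6. The other 8 genes ran from percentile 28.5 (ERCC4) to 71.4 (ERCC8), and the median over the 10 was 53.0. In number of intronic peaks 3 genes were above their bin median, 5 at it and 2 below it. Reads were also dense around many of these peaks, with the reads of the peaks themselves included, since there was no control library. The 10 kb around the peaks held 76 to 459 reads in XPC and 259 to 698 in DDB2, against a median of 112 over protein-coding genes and 168 to 447 in XPA, which had 2 intronic peaks. The part of this read density in the number of peaks was not tested.

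**Figure D2:**
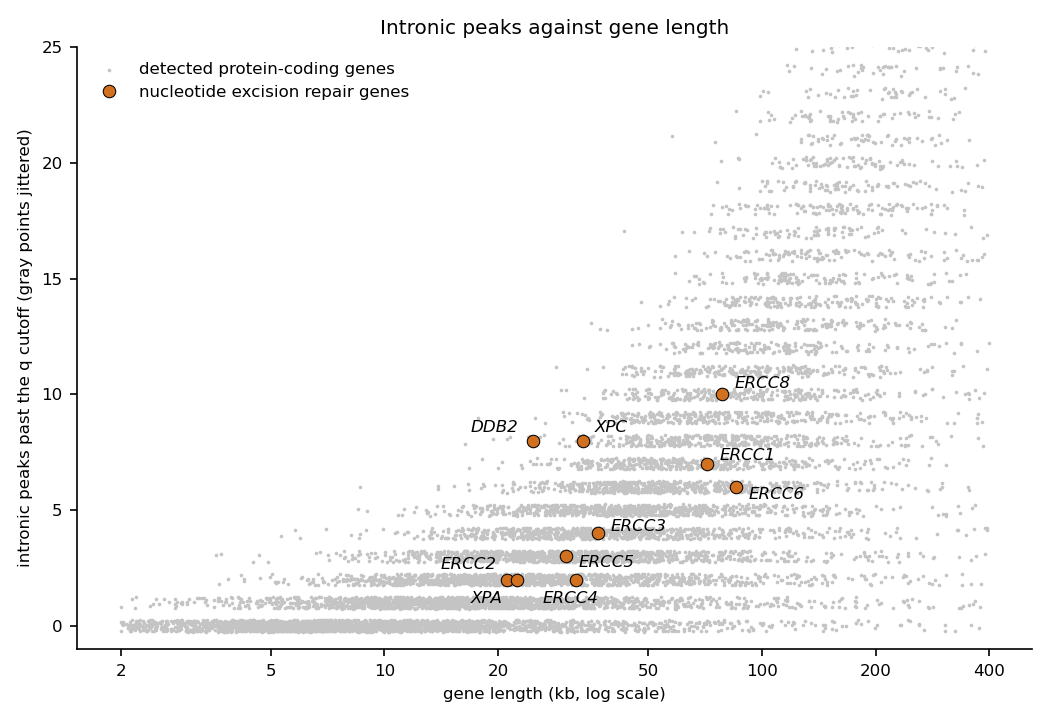
Number of intronic peaks past the q cutoff (vertical) against gene length (kb, log scale) for detected protein-coding genes of 2 to 400 kb with at most 25 such peaks (gray, jittered) and the 10 genes (orange). DDB2 and XPC, with 8 peaks each, stand at the upper edge of genes of their length, and the other 8 lie within the cloud.

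**Figure D3:**
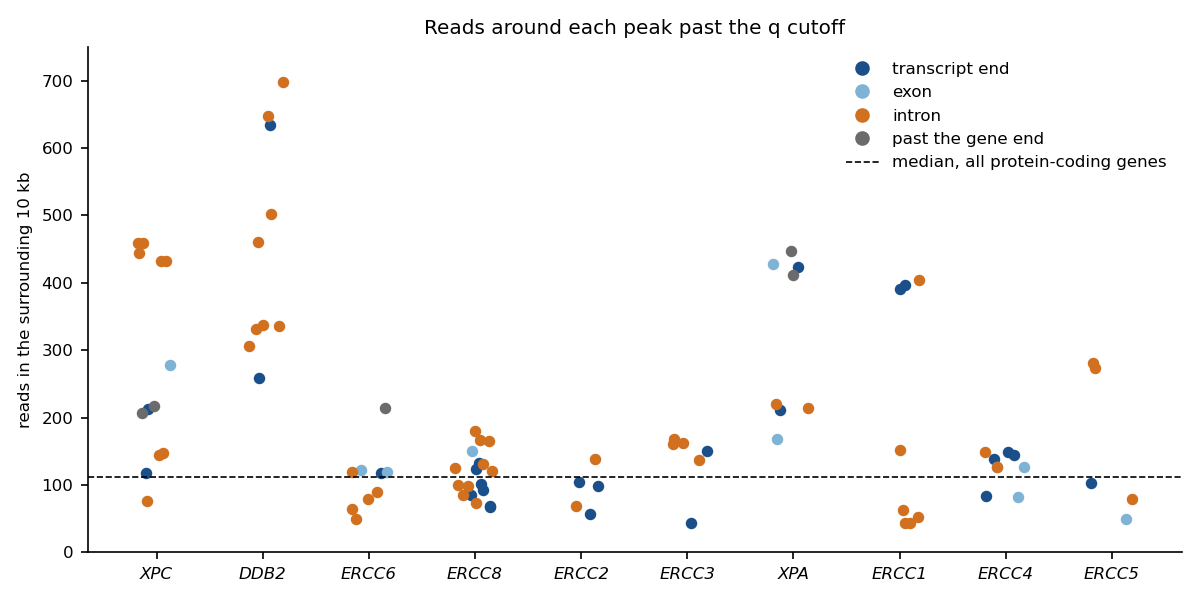
Reads in the 10 kb around each passed peak, estimated from the caller's background (vertical), by gene and colored by class; 3 peaks whose background was at the floor are not drawn. All points of DDB2 lie above the dashed line, the median of 112 reads over protein-coding genes, and those of ERCC6 and ERCC8 scatter around it.

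ERCC6 and ERCC8, which act where RNA polymerase II stalls at a lesion, had intronic peaks of about the height seen over all protein-coding genes, whose median was 12 reads. ERCC6 is a chromatin remodeler that binds the stalled polymerase, and ERCC8 is the substrate-binding subunit of a ubiquitin ligase. Their 16 intronic peaks had a median of 11.5 reads (8 to 17), and 10 of the 16 had a hexamer (all genes 57.1%).

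ERCC6 (ENSG00000225830.16, chr10:49454168-49539538, minus strand) had no passed peak at its canonical end. The peak nearest to that end, with 13 reads, had a −log10 q-value of 4.70 and fell just under the cutoff. The tallest transcript-end peak, with 15 reads (8.40 to 24.7), was in the last exon, where ENSG00000235939 is annotated on the opposite strand. The tallest intronic peak had 16 reads (9.15 to 26.0) and lay in intron 5, with 31.2% of the coding sequence before it and an AATAAA 21 bp before its edge. Intron 5 also held exonic peaks of 12 and 17 reads, in exons of other annotated ERCC6 transcripts. Past the gene end a peak of 24 reads (15.4 to 35.7) had an AATAAA 22 bp before its edge and lay within the same opposite-strand gene. The 15 and 16 reads do not differ beyond counting error, so the order of the end and the intron is not resolved for this gene.

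ERCC8 (ENSG00000049167.16, chr5:60866454-60945073, minus strand) had the most peaks, with 18 of 26 past the cutoff. Of these, 7 were at transcript ends, 1 was exonic and 10 were intronic, and their heights stayed between 9 and 18 reads. The tallest transcript-end peak, with 18 reads (10.7 to 28.4), belonged to a retained-intron transcript ending in intron 10, and the canonical end had 17 reads (9.90 to 27.2). The tallest intronic peak had 17 reads, no hexamer and 19 A in 25 bases of genome just downstream. It lay in intron 1, 6.68 kb from the start, among 5 passed peaks of that intron. Another 4 lay in intron 11. No single site of ERCC8 stood above the rest by more than counting error. With 10 intronic peaks over 78.6 kb it ranked at percentile 71.4 for its length.

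The ERCC6 intron 5 site and ends of both genes are shown to compare their hexamers, with capitals for the one nearest to the edge. The window of the ERCC8 canonical end also holds an AATAAA, in lower case, farther from the edge.
ERCC6 intron 5 (chr10:49518940-49518969, 16 reads): tggtttttAATAAAtttttgatcctaaagg
ERCC6 last exon (chr10:49458660-49458689, 15 reads): tacctcagaATTAAAactttaaggaagaag
ERCC8 canonical end (chr5:60866455-60866484, 17 reads): aatgaaataaagttctgaAATATAagaatc
ERCC8 intron 10 end (chr5:60890438-60890467, 18 reads): tgaagttAATACAacctatataatttctta

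ERCC2 and ERCC3, the TFIIH helicases, stood at the median number of intronic peaks for their length, with 2 in ERCC2 and 4 in ERCC3. The 6 had 11 to 19 reads (median 12.5). A hexamer lay before 1 of the 6 (all genes 57.1%). At 4 of the 6, at least 18 A lay within 25 bases of genome just downstream (all genes 26.9%), where the priming oligo can bind the RNA itself and not a tail. These counts are small and were not tested.

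ERCC2 (ENSG00000104884.17, chr19:45349837-45370918, minus strand) unwinds the DNA around the lesion. Its canonical-end peak was its tallest, with 38 reads (26.9 to 52.2), and its 2 intronic peaks had 11 and 12 reads in introns 5 and 11. Neither of these 2 had a hexamer, and 19 and 21 of 25 bases just downstream of them were A. The tallest intronic peak made up 24.0% of the reads of both tallest peaks (exact interval 13.1 to 38.2), the lowest share of the 10 genes. The canonical end lies inside KLC3, a gene on the opposite strand, and a second end peak of 20 reads falls at the end of KLC3. ERCC2 is GC-rich at 56.6%.

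ERCC3 (ENSG00000163161.14, chr2:127257290-127294166, minus strand) opens the DNA as a translocase. Its canonical end had 25 reads (16.2 to 36.9), with an AATAAA 31 bp before an edge 4 bp from the annotated end. A peak of 27 reads (17.8 to 39.3) lay in exon 6 at the end of a retained-intron transcript, with 30.6% of the coding sequence before it and no hexamer. The 4 intronic peaks had 14, 19, 13 and 12 reads. The tallest of them, in intron 11, and the peak of 13 reads in intron 12 lie next to near-unbroken A stretches of 21 and 23 in 25 bases.

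The canonical end of ERCC3 and the genome right after 3 intronic peaks are set side by side to show the difference, with capitals for the hexamer in the first line and for the A bases in the others.
ERCC3 canonical end (chr2:127257300-127257329, 25 reads): gttaccgttctgAATAAAcagaatggacca
ERCC3 after intron 11 peak (chr2:127272000-127272024, 19 reads): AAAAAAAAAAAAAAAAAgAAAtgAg
ERCC3 after intron 12 peak (chr2:127266706-127266730, 13 reads): AAAAAAAAAAAAAAAAAAAAAtAAt
ERCC8 after intron 1 peak (chr5:60933204-60933228, 11 reads): AAAAAAAAAAAAgAAAAAAAAggAA

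XPA (ENSG00000136936.11, chr9:97674909-97697340, minus strand), the scaffold that checks the lesion, had its tallest peak before the end of its coding sequence. The peak had 46 reads (33.7 to 61.4), lay in exon 5 at the annotated end of a shorter transcript, and had an AAGAAA 11 bp before its edge. At that point 71.7% of the coding sequence has been passed. The peak in the canonical end window had 24 reads (15.4 to 35.7), but its edge was 647 bp past the end and the window holds the end of NCBP1, on the opposite strand. In exon 6, the last exon, a peak of 30 reads had an AATAAA 35 bp before its edge. The 2 intronic peaks were low, at 14 and 16 reads, and an exonic peak in exon 2 had 29 reads. Past the gene end, peaks of 33 and 22 reads both lay inside NCBP1.

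ERCC1, ERCC4 and ERCC5 encode the nucleases that cut the damaged strand. ERCC1 and the ERCC4 protein form the complex that cuts 5′ of the lesion, and ERCC5 cuts 3′ of it. Their 12 intronic peaks had a median of 12 reads (7 to 31). A hexamer lay before 6 of them (all genes 57.1%) and at least 18 A after 1 (all genes 26.9%).

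ERCC1 (ENSG00000012061.17, chr19:45407334-45478828, minus strand) had its tallest peak, of 39 reads (27.7 to 53.3), at an annotated end short of the canonical one. Its edge was 1 bp from that end, with an AATAAA 23 bp before it. No passed peak fell at the canonical end. The tallest intronic peak, with 31 reads in intron 9, lay in the end window of POLR1G, an opposite-strand gene that also covers both transcript-end peaks. Of the other 6 intronic peaks, with 7 to 13 reads, 5 lay before the start of the canonical transcript, in the intron of longer ERCC1 transcripts. The one with 10 reads lies inside FOSB, a gene on the opposite strand. The gene body, which set the length bin of ERCC1, spans 71.5 kb, and the canonical transcript 16.6 kb.

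ERCC4 (ENSG00000175595.16, chr16:13920138-13952348, plus strand) had peaks of like height along its length. The tallest transcript-end peak had 22 reads (13.8 to 33.3) at the end of a nonsense-mediated-decay transcript in exon 6. A retained-intron end in exon 8 had 20 reads, and both lie within an opposite-strand gene, ENSG00000262732. The tallest intronic peak had 21 reads (13.0 to 32.1) in intron 8, with an AATAAA 21 bp before its edge, and the canonical end had 17 reads (9.90 to 27.2). These heights overlapped within counting error. With 2 intronic peaks, ERCC4 ranked at percentile 28.5 for its length, the lowest of the 10. Without peaks that have at least 18 A downstream it was at 40.0, and ERCC2, at 53.3 with them, was lowest at 11.4.

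ERCC5 (ENSG00000134899.24, chr13:102845831-102875995, plus strand) had equal heights at its canonical end and in its first intron. The end had 28 reads (18.6 to 40.5), an AATAAA 28 bp before its edge and that edge 4 bp from the annotated end. In intron 1 a pair of peaks 1.49 and 2.09 kb from the canonical start had 23 (14.6 to 34.5) and 28 reads (18.6 to 40.5), each with an AATAAA, 19 and 17 bp before the edge. Only 2.47% of the coding sequence lies before them. The readthrough gene BIVM-ERCC5 spans all of these peaks on the same strand, so its transcripts cannot be separated from those of ERCC5.

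The ends of ERCC1, XPA and ERCC5 and the intronic sites of ERCC4 and ERCC5 are printed to compare their signals, with capitals for the hexamer nearest to the edge.
ERCC1 exon 10 end (chr19:45409617-45409646, 39 reads): tgtaatAATAAAtcgtcctcccaggccagg
XPA exon 5 end (chr9:97684936-97684965, 46 reads): cgagaaaaaatgaaacagAAGAAAtttgat
ERCC4 intron 8 (chr16:13937546-13937575, 21 reads): caaaagaaAATAAAaaatgccctgtgtggt
ERCC5 canonical end (chr13:102875970-102875999, 28 reads): tAATAAAattaactggtggcacggtctttg
ERCC5 intron 1 (chr13:102847586-102847615, 23 reads): ataatctttaAATAAAtctgtaattgattt
ERCC5 intron 1 (chr13:102848175-102848204, 28 reads): tcatatatttatAATAAActcgtttatgtc

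Within each gene, the tallest intronic peak was higher than the tallest transcript-end peak in 3 of the 10 genes (ERCC6, XPC and DDB2), against 34.7% of genes with both kinds of peak. In ERCC5 they were equal. The intronic share of the 2 heights ran from 24.0% in ERCC2 and 25.8% in XPA (15.5 to 38.5) to 57.1% in DDB2 (46.3 to 67.5) and 59.4% in XPC (46.4 to 71.5). The exact intervals of ERCC2 and XPA stayed below equal heights, and those of the other 8 genes, XPC and DDB2 included, did not exclude them. The median ratio of intronic to transcript-end height was 0.949, against 0.833 over detected genes with both. Without peaks at an opposite-strand gene the count was 6, adding ERCC2, ERCC4 and ERCC1. ERCC1 then had no transcript-end peak, so that 5 of 9 genes with both kinds were higher in an intron. The share over all genes was not computed in this setting or the next, so the 34.7% is no reference for them. With the canonical transcript alone the count was also 6, but ERCC1, ERCC6 and XPC then had no transcript-end peak. The canonical-end peak of XPC was named by its 3′ edge, and its summit lay more than 200 bp before the canonical end. Of 7 genes with both kinds, 3 (ERCC4, ERCC8 and DDB2) were higher in an intron.

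**Figure D4:**
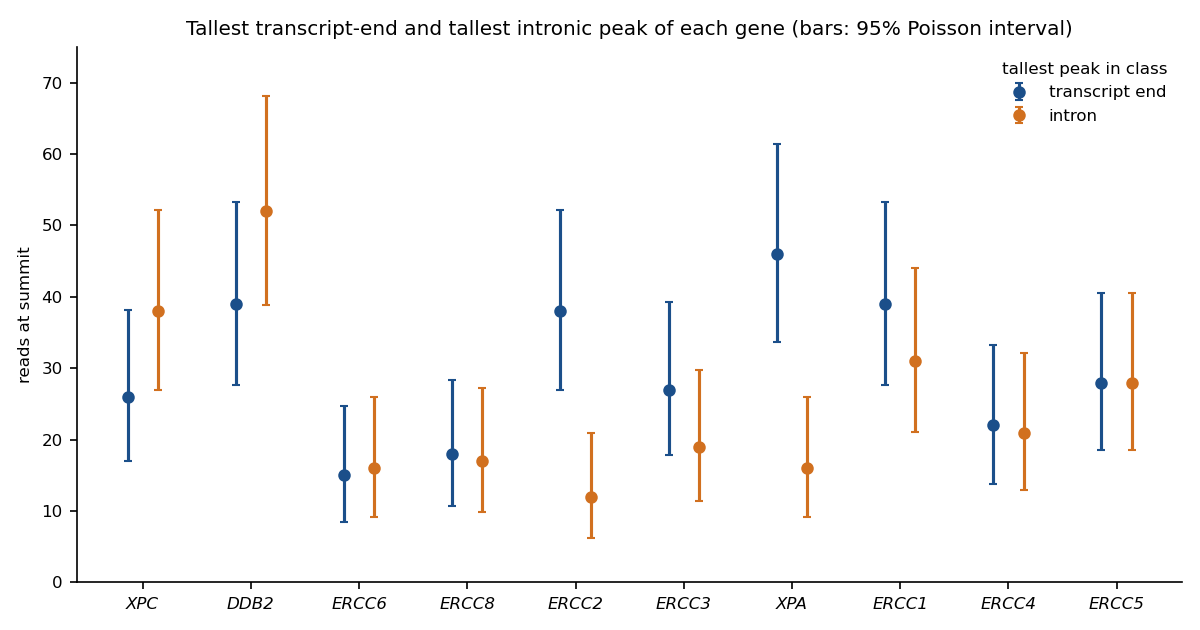
Reads at the summit of the tallest transcript-end peak (blue) and tallest intronic peak (orange) of each gene, with 95% exact Poisson intervals. The 2 intervals do not overlap in ERCC2 and XPA, where the transcript end is higher, and they overlap in the other 8 genes.

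Of the 27 transcript-end peaks, 8 were at canonical ends, in 8 genes (29.6%, 15.9 to 48.5), against 43.3% over protein-coding genes. The other 19 were at other annotated ends, in 9 genes. The 3′ edge of 15 of the 27 was within 30 bp of an annotated end, a share that was not computed over all protein-coding genes. Past the gene end, 3 of the 10 genes (ERCC6, XPA and XPC) had a peak, against 31.1% of detected genes. All 5 of these peaks lay inside an opposite-strand gene, and 2 of them also in the end window of another gene. Neither share was computed for the peaks past the gene end of all protein-coding genes. Over all classes, 20 of the 94 peaks (21.3%) had the summit in an opposite-strand gene or in the 600 bp past its end, against 17.5% over protein-coding genes.

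The hexamer that recruits the cleavage complex was sought in the 100 bp before each 3′ edge, on the gene's strand. Where several of 12 forms were present, the one nearest to the edge was taken. That was AATAAA at 29 peaks, AAGAAA at 7, AATGAA at 6, ATTAAA at 5, AATATA at 4, AATAGA at 3, AGTAAA at 3, AATACA at 2, TATAAA at 2, ACTAAA at 1, CATAAA at 1 and GATAAA at none. A hexamer was present at 63 of the 94 peaks (67.0%, 57.0 to 75.7), against 62.5% over protein-coding genes. In the mirrored window of the opposite strand, 34 of the 94 (36.2%) had one, a share not computed over all protein-coding genes. By class the share was 70.4% at transcript ends (all genes 79.2%) and 63.5% in introns (49.9 to 75.2; all genes 57.1%). AATAAA was the nearest form at 29 of the 94 peaks (30.9%; all genes 22.9%), at a median of 22 bp before the edge (all genes 23 bp). In introns it was nearest at 15 of 52 (28.8%; all genes 19.5%).

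Within 50 bp downstream, 25 bases with 22 or more A were found at 3 of the 94 peaks (3.19%), against 4.01% over protein-coding genes, and all 3 were intronic. With 18 or more A the count was 13 of 94 (13.8%, 8.26 to 22.2), against 19.6%. Of these, 11 were intronic, or 21.2% of intronic peaks (all genes 26.9%). Of the 52 intronic peaks, 10 (19.2%; all genes 25.4%) had neither a hexamer nor such a stretch. A match is a description of the letters and not of cleavage there.

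**Figure D5:**
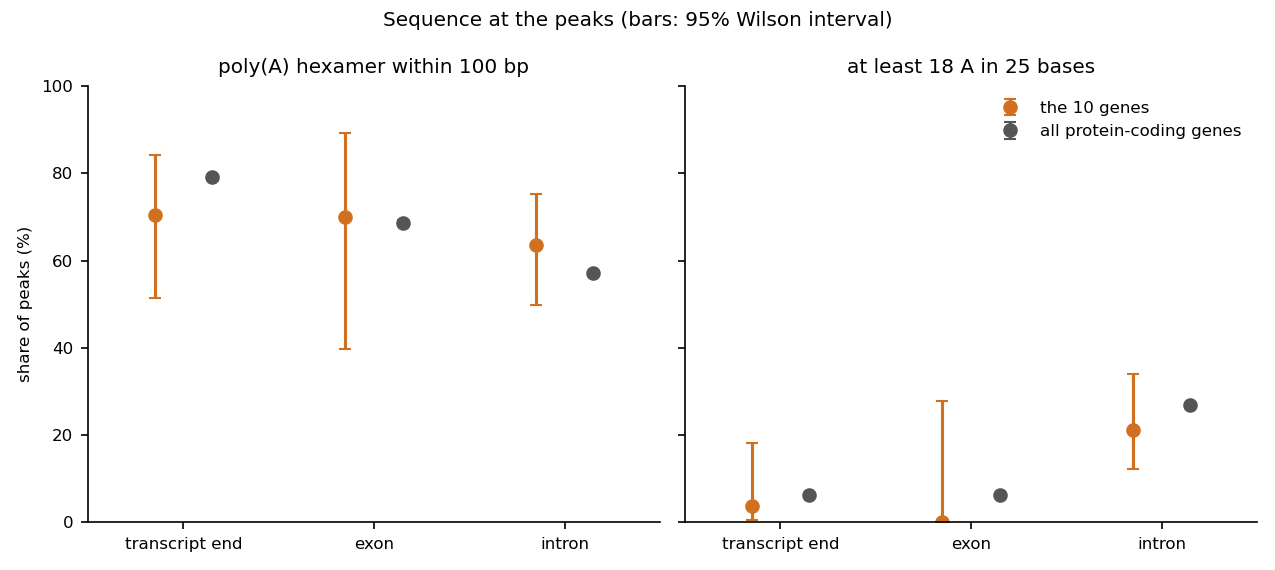
Share of peaks (%) with a hexamer in the 100 bp before the 3′ edge (left) and with at least 18 A in 25 bases downstream (right), by class, for the 10 genes (orange) and all protein-coding genes (gray), with 95% Wilson intervals. The interval of the 10 genes covers the value of all protein-coding genes in each class and panel.

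Of the 52 intronic peaks, 15 (28.8%, 18.3 to 42.3) lay within 5 kb of the canonical start, against 12.5% over protein-coding genes, whose lengths were not matched here. In the first intron of the canonical transcript lay 14 (26.9%, 16.8 to 40.3), against 28.3%. Those 14 belonged to XPC, ERCC8, ERCC5 and ERCC6. In length the 10 genes resembled detected genes, with medians of 32.8 and 36.5 kb, and in GC content, with medians of 42.8% and 44.7%. The U1 snRNP protects introns from early cleavage by binding motifs like a splice donor. Such motifs (GGTGAG with GGTAAG and with GTGAGT, matches that overlap each counted) and AATAAA were counted on the gene's strand over the gene body, and their ratio had a median of 0.952 over the 10 genes and 1.08 over detected genes. XPC was at 1.75 and DDB2 at 0.905. Whether this ratio goes with the number of intronic peaks was not tested.

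Of the other 19 genes of the pathway, 18 had a transcript-end peak, against 64.0% of protein-coding genes. An intronic peak was found in 16, among them MMS19, which is not a detected gene, against 79.7% of detected genes. These 19 comprise the partners of XPC, the remaining TFIIH subunits, the RPA complex, the ligase LIG1 and accessory factors. MMS19, which helps deliver iron-sulfur clusters to ERCC2, was the gene with no transcript-end peak, and its tallest intronic peak had 17 reads. MNAT1, a TFIIH kinase subunit of 235 kb, had 23 intronic peaks of at most 17 reads. RAD23B, a partner of XPC, had 10 of at most 24 reads, and RPA1, the large subunit of RPA, had 8 of at most 44 reads. The median was 3 intronic peaks a gene, against 5 for the 10 genes and 3 over detected genes. Means were 5.2 for the 10 genes and 6.25 over detected genes. Median lengths were 42.6 kb in these 19 genes and 32.8 kb in the 10. The tallest intronic peak was higher than the tallest transcript-end peak in 4 of the 15 genes with both, against 34.7% of all genes with both. Median heights of the tallest transcript-end peak were 32 reads in these 19 genes, 27.5 in the 10 and 25 in all detected genes. MMS19, with no such peak, was counted as 0 in the first of these medians, while every gene of the other groups had one. Those of the tallest intronic peak, over genes with one, were 20.5, 20 and 21 reads.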

How the data were processed

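QuantSeq 3′ reads were trimmed by the authors and, per the paper's methods, aligned to GRCh38, merged over samples and used to call peaks once without a control library; the submitters' processing notes name STAR 2.5.1b and MACS2 2.1.1. The merged samples are not listed and are taken to be all 6 libraries. Depth per library is unknown, and reads with up to 20 placements were kept. Each deposited row gives a fold enrichment, a −log10 p-value, a −log10 q-value and a summit offset. Reads at the summit and the local background (10 kb) were solved from the deposited fold and −log10 p (largest misfit 0.000172 in −log10 p), and the solution was tested on simulated data. A floor of 0.337 reads was the background of 22.2% of peaks. Genes came from GENCODE 44. The q cutoff of 5 served all classes, and the closing section gives the alternatives.

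The members and lists were chosen with earlier results of these data known. All 10 genes are named, each with its tallest transcript-end and intronic peak and any other passed peak of at least 20 reads, and, of the other pathway genes, those with no transcript-end peak and the 3 with most intronic peaks. One marker gene and one sequence are not reported here. Detected genes were placed in 20 length bins. Python 3.11.15, pandas 2.3.3 and pysam 0.24.0 were used.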

Additional observations from a re-analysis of the deposited data

How the results depend on the processing

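Of 61 values recomputed under another setting, 41 stayed within 1.5 times (counts) or the counting interval (shares and percentiles) and 20 moved. For the median percentile, that interval was for a share of the genes in a length bin. It does not cover the spread over the 10 genes, so a move there need not exceed that spread. With a −log10 q-value of at least 20, 11 peaks were left, with 6 genes holding a transcript-end peak, 2 (XPC and DDB2) an intronic one, 2 intronic peaks, an intronic share of 18.2%, a transcript-end share of 63.6%, an A-stretch share of 0.0% and a median percentile of 43.4 over 6 genes. With the canonical transcript alone, fewer ends and exons count. The intronic share was then 68.1%, the transcript-end share 7.45% and the number of genes with a higher intronic peak 6. Of these, 3 had no transcript-end peak, among them XPC, whose canonical-end peak has its summit outside the 200 bp window before that end. Leaving out peaks at an opposite-strand gene also gave 6 genes, with ERCC1 lacking a transcript-end peak, and a median percentile of 59.2 over 9 genes. The hexamer share was 46.8% with AATAAA and ATTAAA, 40.4% with AATAAA alone and 33.0% in the window ending at the summit. The A-stretch share was 9.57% when 50 bp on either side were searched and 13.8% at 18 A. The median percentile was 59.9 with no cutoff and 64.8 among all protein-coding genes. No paired analysis was possible because one pooled list holds every library, and no replicate could be left out for the same reason. Heights of 7 to 52 reads limit what can be ordered within a gene.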
